A study of Mus musculus with 12 samples.

Results

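The inflammasome genes described here include the sensors Nlrp1a, Nlrp1b, Nlrp3, Nlrc4 and Aim2, with the pseudogene Nlrp1c-ps grouped among them. The others are the adaptor Pycard, the protease Casp1, the pore former Gsdmd and the cytokine Il1b. These 10 genes were taken by name from the gene lists of the copy-number segments of a pair of mouse pancreatic ductal adenocarcinoma (PDAC) lines, and all 10 were found among 21134 autosomal genes that both lines name. The set was chosen by the log2 and copy number measured in these lines, where Nlrp1b and Nlrp1c-ps stood out in 14837T, so the values below are a description and no test was made on them.

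Whole-exome sequencing (WES) was done on DNA of the lines 15376T and 14837T, giving 1 library for each. Each library is called below by its line, and in the plots by the line with the prefix WES. The study asked how Lin28b in tumor cells and in fibroblasts affects PDAC growth, with 15376T as a tumor line of high Lin28b and 14837T as a line of low Lin28b. Its RNA-seq libraries and the exome of wild-type tail were not analysed here. Both lines are primary cultures from C57BL/6 mice whose engineered alleles include p48-Cre, ROSA_rtTA and p53 L/+, in which Cre made in pancreatic progenitors turns on a transactivator that responds to doxycycline and removes the floxed p53 allele. They were kept in doxycycline, the labels give the genotype of both only as WT, and each line is 1 primary culture. The sources differ on the capture kit, and both of the named kits are designed for human exons.

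Inflammasomes are protein platforms of the innate immune system. A sensor that meets a microbial product or a sign of cell damage gathers the adaptor ASC, encoded by Pycard, and with it caspase-1, which cuts the precursors of IL-1β and IL-18 and frees the N-terminal part of gasdermin D to open pores in the cell membrane, a form of cell death called pyroptosis. Mice carry neighboring Nlrp1 paralogues in place of the human NLRP1 gene. Nlrp1b is known as the sensor of anthrax lethal toxin and differs between inbred strains, whereas Nlrp1c-ps is annotated as a transcribed pseudogene.

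The log2 given for each gene is that of its segment, a stretch of neighboring capture bins with a common ratio of coverage to a copy-number reference. The authors' calls matched thresholds of a log2 of -0.25 or below for lost, -1.1 or below for 0 copies, and above 0.2 for gained. These thresholds were inferred, as the paper does not state them. A ratio is a mean over the cells of a culture, so copies per cell and the share of cells that carry a change cannot be told apart. The median depth of autosomal segments at 2 copies was 44.9 in 15376T and 47.0 in 14837T. The SD of log2 among these segments was 0.090 over 103 segments and 0.095 over 96 segments, which gives a spread of 0.13 for a difference between the lines. That spread is between segments of a library and not between replicates. Segments called at 2 copies lie above -0.25 and at or below 0.2, so the thresholds bound the spread. It serves only as a measure of size. The median absolute difference over all genes, 0.12, was near it. DNA copy number cannot check the labelled cell type.

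The Nlrp1 genes lie side by side on the minus strand of chromosome 11, and the sequences before a start of Nlrp1a and a start of Nlrp1b are compared here. RefSeq (GRCm38.p6) gives promoters for 8 of the 10 genes. The 250 bases before a start are shown for the paralogue that stayed at 2 copies in both lines, Nlrp1a at chr11:71144705-71144954, and for the one called at 0 copies in 14837T, Nlrp1b at chr11:71230734-71230983, both 5′ to 3′ on the minus strand. Capitals mark the bases that differ or have no partner within the aligned part.
Nlrp1a: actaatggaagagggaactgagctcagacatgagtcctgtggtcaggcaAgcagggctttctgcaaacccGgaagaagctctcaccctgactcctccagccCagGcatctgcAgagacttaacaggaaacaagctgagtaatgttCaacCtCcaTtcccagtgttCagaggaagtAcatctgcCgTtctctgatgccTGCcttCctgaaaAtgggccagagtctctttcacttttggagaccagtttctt
Nlrp1b: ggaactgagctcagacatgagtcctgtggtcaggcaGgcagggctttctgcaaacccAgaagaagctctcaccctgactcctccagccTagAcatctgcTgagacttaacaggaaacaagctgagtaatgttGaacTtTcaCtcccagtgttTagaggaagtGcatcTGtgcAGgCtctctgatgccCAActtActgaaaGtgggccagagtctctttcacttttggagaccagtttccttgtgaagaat
Of 238 aligned columns, 217 were identical (91.2%), with 18 mismatches and 3 columns without a partner, and the longest identical run was 37 bases. Among all 45 pairs of the 10 promoters that RefSeq lists for these genes, no other pair aligned over more than 43 columns. Of 32851 promoters in the RefSeq table, the Nlrp1a and Nlrp1b promoters shared a run of 25 bases with each other and with no other promoter. A second Nlrp1b start has its promoter at chr11:71201457-71201706, which aligned with that of Nlrp1a over only 12 columns. How alike the genes are over the captured bins was not measured. How the authors treated reads that align to more than 1 place is not given in the sources used here, so the depth of each Nlrp1 gene is uncertain to the extent that the paralogues share sequence.

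In 15376T, all 3 Nlrp1 genes had a log2 of 0.056 and were called at 2 copies. In 14837T, Nlrp1a had a log2 of -0.036 and was called at 2 copies, whereas Nlrp1b and Nlrp1c-ps stood at a log2 of -8.74 and were called at 0 copies. They were the only genes at 0 copies in that line, 2 of 21134 or 0.00946%, while 15376T had 10 such genes, 0.0473%, and none of the inflammasome genes among them. The difference between the lines, 15376T minus 14837T, was 8.80 for Nlrp1b and Nlrp1c-ps, the highest absolute difference of all genes. As a log2 ratio of segment depths, the value was 2.25. That ratio sets the 19 bins of 14837T against the mean of a 15376T segment of 11932 bins, not against the same bins. For Nlrp1a the difference in log2 was 0.092, less than the spread of 0.13.

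The segment of 14837T at 0 copies spans chr11:71172030-71285291, a length of 113 kb with 19 bins, and lists Nlrp1b and Nlrp1c-ps. Its log2 was the lowest of the 224 autosomal segments of the line, the next lowest being -0.81. Its mean read depth of 10.9 was also the lowest, below the 15.8 of the next. The bins of Nlrp1b alone, 9 in number, had a depth of 12.7, and the 10 bins of Nlrp1c-ps had a depth of 8.97. Both genes thus contributed to the low value of the segment. Against the median of segments at 2 copies, the depth was 23.1% for the segment, 27.0% for Nlrp1b and 19.1% for Nlrp1c-ps. Depth is not normalized to a reference, so these shares are not copy numbers.

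Depth and log2 gave different sizes for this loss. The depth of the segment stood at -2.11 on the log2 scale against segments at 2 copies, whereas its log2 of -8.74 stands for 0.234% of the reference, and some reads were therefore present over bins called at 0 copies. In 14837T the lowest depth of any autosomal segment at 2 copies was -0.60 on the same scale, so the depth lay below all 96 of them. In 15376T the lowest was -1.58. Among 2-copy segments of fewer than 100 bins, the SD on this scale was 0.35 in 14837T (6 segments) and 0.68 in 15376T (11 segments). Of 2770 autosomal genes with at least 5 bins in the gene table of 14837T, 8 had a depth below that of Nlrp1b and 1 below that of Nlrp1c-ps, with a median of 46.3. All 2770 have an absolute log2 of about 0.40 or more, so they are genes called lost or gained. The 8 include Nlrp1c-ps, and the others lay in segments not called at 0 copies. Where the remaining reads came from was not tested.

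**Figure D1:**
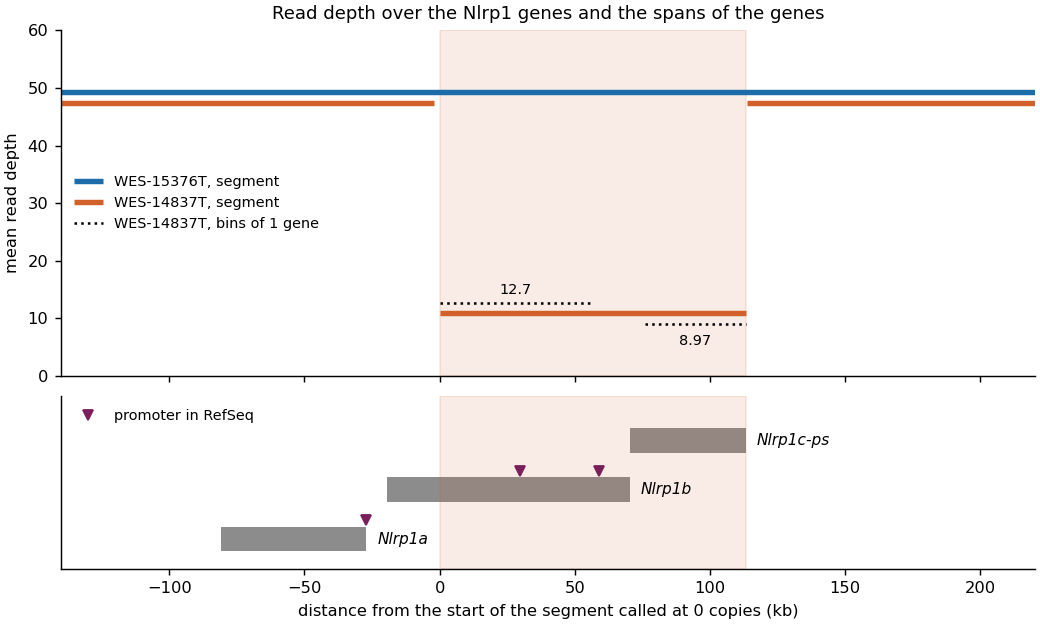
Mean read depth of the segments over the Nlrp1 genes in each line (upper panel, lines) and of the bins of Nlrp1b and Nlrp1c-ps in 14837T (dotted), with the RefSeq spans of the genes and their promoters (lower panel), against distance in kb from the start of the segment called at 0 copies (shaded). The segment means of 14837T are 47.5 before the segment, 10.9 within it and 47.4 after it, while 15376T has 1 segment at 49.3 across the region. The 47.5 is a mean over 7123 bins and the 47.4 over 644 bins, so neither is the depth right beside Nlrp1b.

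The border of the segment fell inside Nlrp1b. Nlrp1b spans chr11:71152574-71242514, of which 70485 bases or 78.4% lay in the segment at 0 copies, 17262 bases lay in the 2-copy segment before it and 2194 bases lay in the gap between them. The part at 2 copies is the 3′ end of the gene, since Nlrp1b is on the minus strand. Both Nlrp1b promoters lay in the segment at 0 copies. The bins assigned to Nlrp1b there ran from 71172030 to 71228511, so the promoter printed above lay outside them. Nlrp1c-ps (chr11:71242430-71285232) lay whole inside the segment. Nlrp1a (chr11:71091197-71144969) ended 27.1 kb before it and 7.61 kb before Nlrp1b, and its promoter lay outside.

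The 3 nearest named genes on each side had 2 copies in both lines. Before the segment these were Derl2, Mis12 and 6330403K07Rik, with a log2 of -0.036 in 14837T, and after it 9230020A06Rik, Wscd1 and Aipl1, with a log2 of -0.052. In 15376T the Nlrp1 genes lay in a segment of 11932 bins over 96.5 Mb (chr11:3133019-99620437), of which 19 bins would be 0.159%. The gene table lists a gene only where its absolute log2 is about 0.40 or more, so the depth over Nlrp1b and Nlrp1c-ps themselves in 15376T was not part of the tables. Nlrp1a had no depth of its own in either line. In 14837T its 2 copies, and those of the 3′ end of Nlrp1b, are the call of a segment of 7123 bins over 68.0 Mb.

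The B-allele fraction (BAF) also differed between the segments on either side of the border in Nlrp1b. At positions with a variant, BAF is the share of reads that carry the variant base, as a fraction from 0 to 1. BAF was given as 1 value per segment, so a change could show only at a segment border. Where within the segments the BAF changed is not known. In 14837T it was 0.027 in the 2-copy segment that holds Nlrp3, Nlrp1a and the 3′ end of Nlrp1b, and 1 in the segment at 0 copies. It stayed between 0.97 and 1 through 5 segments in a row, from chr11:71172030 to 89088733 or 17.9 Mb, and was 0.027 again in the next. The 4 later segments of this run were called at 2 copies, with a log2 between -0.11 and 0.093. The neighbors 9230020A06Rik, Wscd1 and Aipl1 thus lay in segments with a BAF of 1 in both lines. Derl2, Mis12 and 6330403K07Rik lay in segments with a BAF of 1 in 15376T and of 0.027 in 14837T.

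In 15376T the 4 inflammasome genes of chromosome 11 (Nlrp3, Nlrp1a, Nlrp1b and the pseudogene Nlrp1c-ps) lay in a segment with a BAF of 1. The next segment had a BAF of 0.040. A BAF of at least 0.9 was found for segments with 6.20% of the autosomal genes in 15376T and 1.61% in 14837T. Over all autosomes the median BAF by length was 0.077 and 0.061. Trp53, engineered in these mice, lies at chr11:69580348-69591873, 1.58 Mb before the segment at 0 copies, in the same segment as Nlrp1a in each line. The number of variants behind a BAF was not part of the tables. The part of the BAF in the loss of Nlrp1b was not tested.

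**Figure D2:**
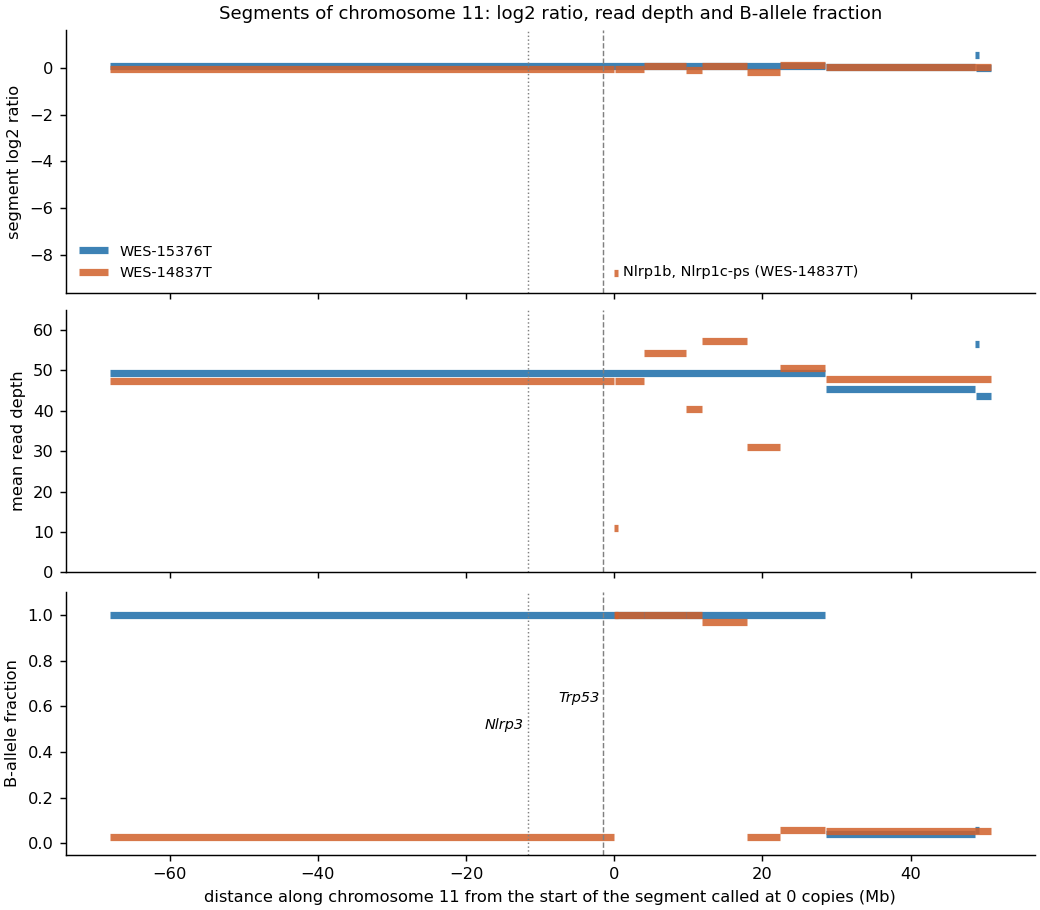
Log2 ratio (top), mean read depth (middle) and BAF (bottom) of the segments of chromosome 11 in each line, against distance in Mb from the start of the segment called at 0 copies in 14837T; segments under 0.5 Mb are drawn 0.5 Mb long so that they can be seen. The log2 of -8.74 and the depth of 10.9 stand alone. The BAF of 14837T goes from 0.027 to 1 at the start of that segment, while that of 15376T is 1 over the first 96.5 Mb. BAF has 1 value per segment, so its changes can show only at segment borders.

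Nlrp3, the sensor of ion flux and of many signs of cell damage, lies at chr11:59541569-59566955, 11.6 Mb before the segment at 0 copies. Its values were those of Nlrp1a, with a log2 of 0.056 in 15376T and -0.036 in 14837T and 2 copies in both. The difference of 0.092 was below the median absolute difference over all genes, 0.12.

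Nlrc4, which with Naip proteins senses bacterial flagellin and secretion needles, was the third gene with a different copy number. It lies on chromosome 17 (chr17:74426255-74459144). In 15376T it had a log2 of 0.0056, a depth of 48.6 and 2 copies, and in 14837T a log2 of 0.28, a depth of 61.4 and 3 copies. The difference of -0.27 was larger in absolute size than the spread of 0.13. Of all genes, 76.1%, ties included, had an absolute difference no larger than it. The segments of the lines had nearly the same borders, chr17:69487870-88984621 with 1595 bins and chr17:69385413-88584036 with 1576 bins. Their BAF was 0.045 and 0.033. At a threshold of 0.3 in place of 0.2, Nlrc4 was no longer called gained in 14837T and its call no longer differed between the lines.

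Aim2, the sensor of DNA in the cytosol, was at 2 copies in both lines. Its log2 was -0.029 in 15376T and -0.027 in 14837T, a difference of -0.0029 that was smaller in absolute size than that of nearly all genes (percentile 1.25). It lies at chr1:173349547-173466040, in a segment of 77.2 Mb and 6753 bins in 15376T and of 22.6 Mb and 2447 bins in 14837T.

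Pycard, which encodes the adaptor ASC, was called lost in both lines. Its log2 was -0.53 in 15376T and -0.30 in 14837T, with 1 copy called in each and segment depths of 31.3 and 39.0. The value of 14837T was close to the threshold of -0.25, and the difference of -0.23 exceeded the spread of 0.13. In 15376T its own 3 bins had a depth of 32.8, near that of the segment. Pycard (chr7:127991373-127993867) lay in a segment of 122 Mb with 13453 bins in 15376T, and in one of 2.10 Mb with 809 bins in 14837T. The BAF was 0.094 and 0.081.

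Casp1, the protease of the inflammasome, was at 2 copies in both lines, with a log2 of -0.10 in 15376T and 0.0059 in 14837T and depths of 43.3 and 48.4. The difference of -0.11 was within the spread. In 14837T its segment, chr9:3133885-5354727, was short, with 119 bins, and ended 47.4 kb after Casp1 (chr9:5298517-5307281). In 15376T the segment had 991 bins and reached 20444998.

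Gsdmd, which encodes the pore former gasdermin D, was called gained in both lines. It had a log2 of 0.49 in 15376T and 0.31 in 14837T, with 3 copies in each and segment depths of 55.7 and 53.8. The difference of 0.18 exceeded the spread of 0.13, and 60.3% of all genes, ties included, had an absolute difference no larger than it. Its own 8 bins in 15376T had a depth of 71.4, above that of the segment. It lies at chr15:75862144-75867408 in a segment of 1691 bins in 15376T and of 3025 bins in 14837T.

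Il1b, the cytokine that caspase-1 matures, was at 2 copies in both lines. It had a log2 of 0.0081 in 15376T and -0.049 in 14837T, with depths of 50.9 and 49.1, and the difference of 0.057 was within the spread. Il1b lies at chr2:129364569-129371164. Its BAF was 0.091 and 0.21.

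**Figure D3:**
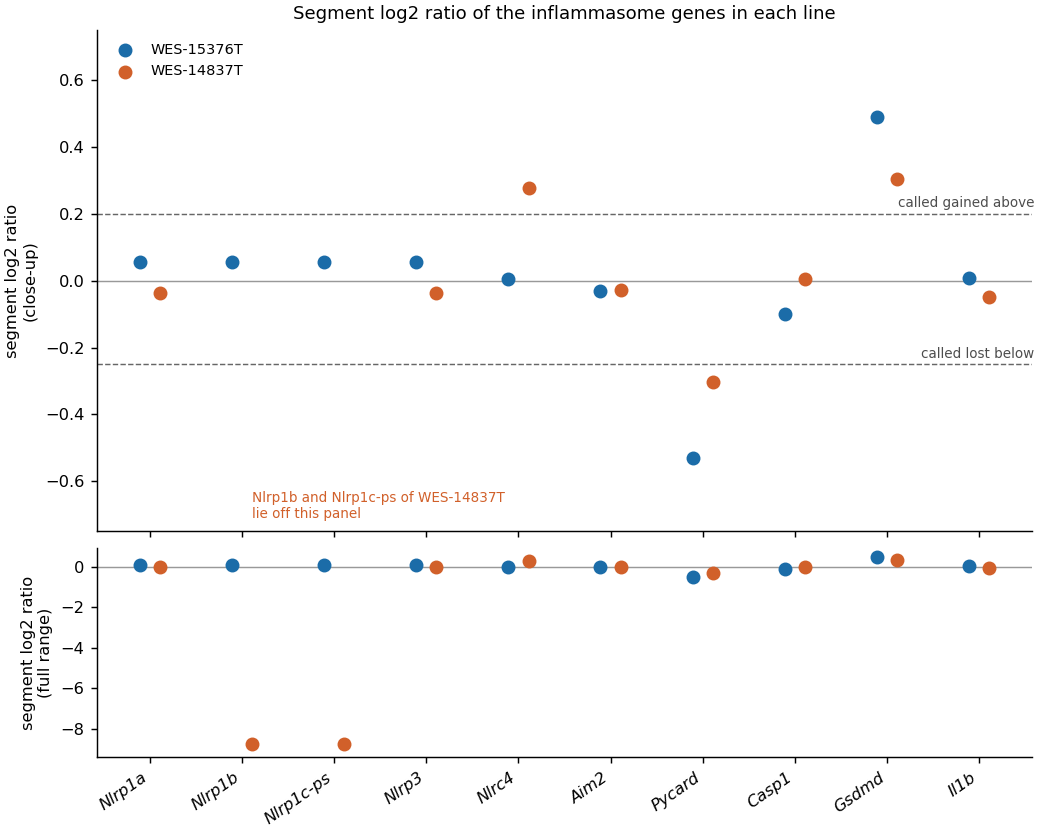
Segment log2 ratio of the 10 inflammasome genes in each line, 1 library per line and so without error bars, in a close-up (upper panel, with the thresholds of -0.25 and 0.2 dashed) and over the full range (lower panel). Pycard lies below the lower threshold and Gsdmd above the upper one in both lines, Nlrc4 is above it in 14837T alone, and Nlrp1b and Nlrp1c-ps of 14837T lie at -8.74.

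In 15376T 1 of the 10 genes was called lost (all autosomal genes: 30.0%) and 1 gained (9.18%). In 14837T 3 were called lost (28.8%) and 2 gained (21.5%). The lines shared 1 loss (22.4%), 1 gain (6.92%) and 5 genes at 2 copies (41.4%), and 3 genes had a different copy number (29.8%). Set against the share of all autosomal genes, each of these counts was off by about 2 genes or fewer, which is a wide margin for 10 genes. The genes lay in 7 segments in 15376T and 8 in 14837T, so they were not independent of each other. The median log2 of the genes was 0.032 and -0.036, and over all autosomal genes it was -0.023 and -0.045.

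The other genes of the pathway were taken from a list of 83 genes that includes the 10 above, and 77 of them were found in both lines. In 15376T 19 (24.7%) were called lost and 10 (13.0%) gained, and in 14837T 26 (33.8%) were called lost and 16 (20.8%) gained. Over all autosomal genes the shares were 30.0% lost and 9.18% gained in 15376T, and 28.8% and 21.5% in 14837T. The calls differed for 15 of the 77 (all genes: 29.8%). The 77 genes lay in 27 segments in 15376T and 33 in 14837T, many of them clusters of paralogues, so a count of genes repeats a smaller number of events.

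Among 14 genes grouped as sensors, 4 were called lost in 15376T (all genes: 30.0%) and 10 in 14837T (28.8%), and 7 had a different copy number (29.8%). The pseudogene Nlrp1c-ps is counted in this group. The 10 include Nlrp1b and Nlrp1c-ps, for which the set was chosen, and 4 Naip genes of the same segment. Naip1, Naip2, Naip5 and Naip6, the partners of Nlrc4 in sensing flagellin and secretion needles, shared a segment with a log2 of 0.081 in 15376T and -0.38 in 14837T. They were called at 2 copies and at 1 copy, while Nlrc4 was called at 2 and at 3. Nlrp6, Nlrp9b, Nlrp10 and Mefv, which encodes pyrin, were called lost in both lines, with a log2 between -0.54 and -0.40. Of 14 other Nlrp genes, 11 were called lost in 15376T and 12 in 14837T, against the same 30.0% and 28.8% of all genes, and the 14 lay in 6 and 7 segments. Nlrp4f was the one with a different call, at -0.036 and -0.47. Nlrp12 and Nlrp2 on chromosome 7 shared a segment with Nlrp9b, at -0.54 and -0.42. Their own depths were uneven. In 15376T these were 28.7 for Nlrp12, 41.6 for Nlrp9b and 51.5 for Nlrp2, and in 14837T they were 31.3, 48.4 and 46.0. Nlrp2 and Nlrp9b each exceeded the median of 2-copy segments in a line where they were called lost. Own depths are not normalized to a reference, so they do not test the calls. The 10 AIM2-like genes shared the segment of Aim2 and were at 2 copies in both lines.

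Casp4, the mouse caspase-11 that binds lipopolysaccharide, shared the 2-copy segment of Casp1 in both lines, and Casp8 was also at 2 copies. Casp12, beside Casp4, had a log2 of -0.10 in 15376T and 0.203 in 14837T, where it was called gained, just above the threshold of 0.2. A segment border fell within it in 14837T. There 14825 of its bases lay in the gained segment and 9286 in the 2-copy segment of Casp1. Of 10 pore formers, 5 were called gained in both lines (all genes: 6.92%), 4 of them in the same segment. Besides Gsdmd these were Gsdmc, Gsdmc2, Gsdmc3 and Gsdmc4, which share a segment of chromosome 15 with a log2 of 0.46 in 15376T and 0.30 in 14837T. Their own depths in 15376T were between 97.6 and 147. Ninj1, which encodes the protein that ruptures the membrane of dying cells, had a log2 of -0.036 and -0.47 and was called lost in 14837T.

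Of 6 cytokine genes, Il18bp, which encodes the binding protein that blocks IL-18, was called lost in both lines (-0.53 and -0.34), and Il33 was called gained in 14837T (-0.030 and 0.36). Il1a lies in the segment of Il1b, and Il18 was at 2 copies in both lines. Among 6 receptor genes, Il1rap, the coreceptor of IL-1 and IL-33, was called lost in both lines, with a log2 of -0.65 and -0.49. The other 5 shared a 2-copy segment.

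Of 12 regulators, 5 were called gained in 15376T (all genes: 9.18%) and 8 in 14837T (21.5%), 4 of them Gbp genes of the same segment. Gbp2, Gbp3, Gbp5 and Gbp7, the guanylate-binding proteins that coat bacteria, had a log2 of 0.65 in both lines and own depths between 80.5 and 99.0. Txnip, a binding partner of NLRP3, had a log2 of 0.59 and 0.62, with own depths of 109 and 111. Dpp8 and Dpp9, the peptidases that hold NLRP1 proteins inactive, were both lower in 15376T than in 14837T. Dpp8 had a log2 of -0.53 in 15376T and -0.029 in 14837T. Its own 19 bins in 15376T had a depth of 49.9, above the median of 44.9 for segments at 2 copies. That depth is not normalized to a reference and does not test the call. Dpp9 had a log2 of -0.0025 and 0.31. The naming rule did not cover Nlrp4f, Nlrp6, Nlrp10, Txnip, Dpp8 and Dpp9, which are mentioned with their values already known.

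**Figure D4:**
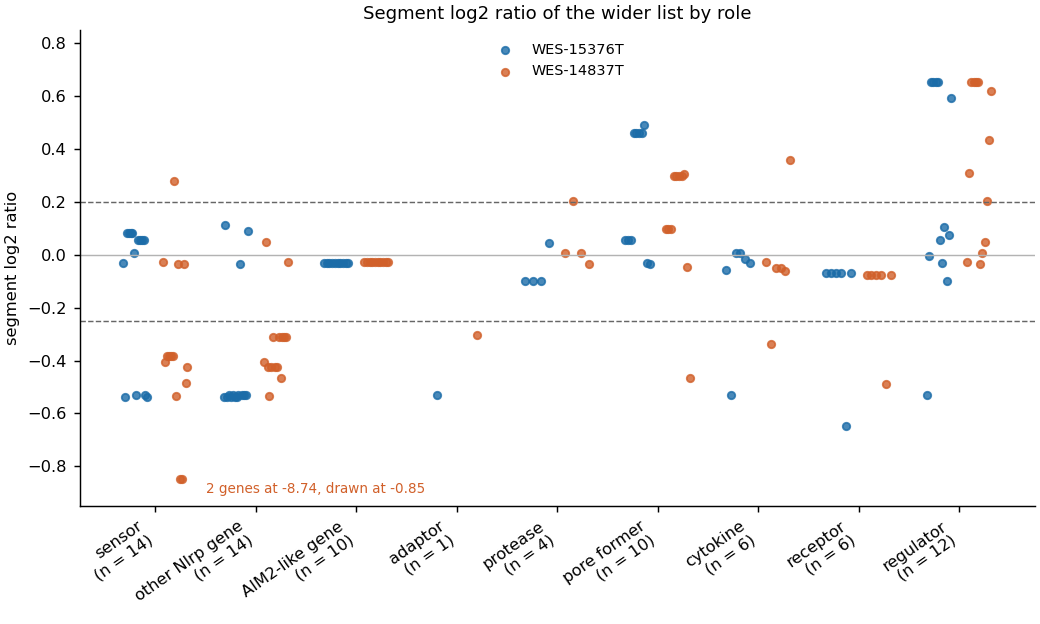
Segment log2 ratio of the 77 genes of the list by role, each point a gene in a line and the thresholds of -0.25 and 0.2 dashed. Genes in the same segment have the same value, and Nlrp1b and Nlrp1c-ps of 14837T, at -8.74, are drawn at the foot of the plot.

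The depth of single genes varied more than the log2 of their segments. Among genes of the list that the gene tables give with a depth of their own, those called lost had depths between 26.1 and 58.6 in 15376T (19 genes) and, without the Nlrp1 genes, between 30.0 and 66.6 in 14837T (13 genes). Of these, 8 of the 19 and 3 of the 13 had a depth above the median of 2-copy segments in their line. The depth of a gene is not normalized to a reference, unlike the log2 of its segment. These depths therefore do not test the calls. Those called gained had depths between 71.4 and 147 (10 genes) and between 70.6 and 111 (6 genes). Nlrp1b, at 12.7, and Nlrp1c-ps, at 8.97, lay below all of them. For the 16 genes in both gene tables, the log2 ratio of own depths between the lines ran from -0.42 for Nlrp10 to 0.23 for Nlrp2, and its median absolute gap to the difference in segment log2 was 0.073.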

How the data were processed

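WES of 2 mouse PDAC lines was analysed, with 1 library per line. The authors deposited a table of segments and a table of genes for each line. The deposited log2 of a segment compares its coverage with a reference, and which reference, aligner and filters were used is not given in the sources used here. The submitters' processing notes name mm10. The deposited BAF is a fraction from 0 to 1, and the deposited depth is a mean coverage signal without normalization. Integer copy numbers are the authors' calls. In the gene tables the log2 is that of the segment and the depth that of the gene's own bins.

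Each gene was given the segment with the largest overlap with its RefSeq span (GRCm38.p6, the same build as mm10), and starts were written counting from 1. Only the 19 autosomes were used. Differences are 15376T minus 14837T. Python 3.11.15, pandas 2.3.3 and numpy 2.4.6 were used, promoters were aligned locally with Biopython 1.88 (match 2, mismatch -3, gap opening -5, gap extension -2), and figures were drawn with matplotlib 3.10.9. The assignment and calls were tested on simulated data with log2 values well away from the thresholds, so calls near a threshold were not covered. Since each line has a single library, the lines were compared without a test. Depth is a mean over bins with no read counts behind it in the tables, so no counting interval is given.

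The genes, the list and the alternatives were chosen with earlier results of these data known. Genes named were the 10, sensors, proteases, pore formers, cytokines and receptors of the list with a different call in the lines, up to 4 per role with the largest absolute log2, the 3 nearest named genes on each side of the Nlrp1 genes, and Trp53. As alternatives, calls were made at an absolute log2 of 0.3 or 0.5, and values were taken from log2 recentred on the autosomal median, from ratios of depths, and from other sets of 2-copy segments for the depth of the Nlrp1b segment. One engineered allele of the mice is not reported here.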

Additional observations from a re-analysis of the deposited data

How the results depend on the processing

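When calls needed an absolute log2 of 0.3, the 10 genes had 1 gain in 14837T instead of 2, Nlrc4 no longer being called, and the list of 77 had 9 gains there instead of 16. When they needed 0.5, the 10 genes had 0 gains in each line instead of 1 and 2. They had 2 losses in 14837T instead of 3, Pycard no longer being called lost there. The list had 5 gains in 15376T instead of 10 and 5 in 14837T instead of 16, and 4 losses in 14837T instead of 26. These are changes of the threshold itself. As a log2 ratio of segment depths, the difference between the lines was 2.25 instead of 8.80 for Nlrp1b and for Nlrp1c-ps, and the cause was not tested. The 15376T depth in that ratio is the mean of a segment of 11932 bins, so the ratio does not compare the same bins. The other 58 of 67 values stayed within the spread between segments or within 1.5 times the count, and none changed sign beyond that spread. Some values near 0 did change sign when log2 was recentred. In 14837T, Nlrp1a and Nlrp3 went from -0.036 to 0.013. Aim2 went from -0.029 to 0.011 in 15376T and from -0.027 to 0.022 in 14837T. The depth of the Nlrp1b segment was between -2.28 and -2.11 on the log2 scale for every set of 2-copy segments tried. The log2 ratio of own depths gave no value for any of the 10 genes, since none is in both gene tables. No paired analysis was possible because a line is 1 library and no test was made. With 1 library per line, none of these differences has a replicate check, and segments of few bins, such as the 19 bins of the Nlrp1b segment, are the least precise.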

Other observations

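Besides the segments of chromosome 11, 15376T had 3 autosomal segments with a BAF of at least 0.9, of which 2 on chromosome 6 had a BAF of 1 and a log2 of 0.18 and 0.11, and none lists an inflammasome gene named above. One of them, chr6:113047395-116327644, starts 20.03 kb before Gt(ROSA)26Sor (chr6:113067428-113077244), the locus that carries the transactivator in these mice. In 14837T the segment with Gt(ROSA)26Sor had a BAF of 0.40. A segment of 20 bins on chromosome 2 (chr2:77881383-77936665) had a BAF of 0.93 in 15376T and 0.92 in 14837T. Segments with a BAF of at least 0.9 covered 103 Mb or 4.32% of the autosomal length in 15376T, and 18.0 Mb or 0.753% in 14837T. Gt(ROSA)26Sor and these segments were looked at after the BAF of the Nlrp1 genes was seen, and no test was made.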
